A study of Saccharomyces cerevisiae with 8 samples.

Results

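Transcript signals of 2 strains of the budding yeast Saccharomyces cerevisiae were compared in the absence of acetic acid. One strain, NFRI 3145, is called AcOH tolerant in the labels and the other, NBRC 0224, AcOH sensitive, where AcOH stands for acetic acid. The comparison rests on 4 of the 8 arrays of the series, namely 2 arrays of NFRI 3145 and 2 of NBRC 0224 at 0% AcOH and 30 °C. The other 4 arrays hold the same strains after 30 min in 0.6% AcOH and enter here through a shared estimate of the spread and in a repeat of the comparison. The labels give no genotype, ploidy, mating type or growth phase, and a time only for the acid samples. They do not say whether the arrays of a group came from separate cultures, so the p-values measure the spread between these arrays, which may be technical. The array, Affymetrix Yeast Genome 2.0, carries probe sets for 5449 S. cerevisiae genes, and 3879 of them lay above background on at least 2 of the 8 arrays and were tested. The series set out to compare strains of different acid tolerance and to choose a gene related to it.

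Acetic acid enters yeast cells in its undissociated form, partly through the aquaglyceroporin Fps1, and releases protons and acetate in the neutral cytosol. Cells answer with the proton pump Pma1, with exporters of acid anions and with genes activated by the transcription factor Haa1. Strains of S. cerevisiae also differ from each other before any stress, in the genes near chromosome ends that vary in number between strains, and in the settings of nutrient regulons.

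Signals are linear intensity units, and a difference is the log2 signal of NFRI 3145 minus that of NBRC 0224, followed by its standard error (SE) from limma, with n = 2 arrays per strain. Background, the 95th percentile of probe sets for another yeast species on the same array, lay between 31.5 and 42.5 on the 4 arrays. The median signal of the tested genes was 186 and 189 in NBRC 0224 and 138 and 143 in NFRI 3145. The share of tested genes above background was 87.5% and 91.3% in NBRC 0224 and 82.6% and 81.9% in NFRI 3145. Replicates correlated at r = 0.981 in NBRC 0224 and 0.975 in NFRI 3145 over the tested genes, a figure that describes arrays and not independent samples. The probes follow the sequence of a reference strain, so a lower signal from less RNA and one from a changed or missing sequence cannot be told apart here. In these bulk cultures, neither can fewer expressing cells and less RNA per cell.

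At an adjusted p under 0.05, 819 genes were higher in NFRI 3145, which is 21.1% of those tested, and 1130 were lower, which is 29.1%. The median fold was 2.43 among the genes called higher and 3.45 among those called lower. Of these, 543 (14.0%) were called and at least 2-fold higher, and 950 (24.5%) called and at least 2-fold lower. The calls in either direction made up 50.2% of all genes, and this is the background for every count below. An unadjusted p under 0.05 was found for 56.8% of the genes. The arrays of one strain did not overlap those of the other for 3162 genes (81.5%), and for 100% of the called genes. With any 1 array of the series left out, the number called higher ran from 567 to 991 and the number called lower from 856 to 1202. In all, 469 of the genes called higher and 770 of those called lower kept the call whichever array was left out. The balance of the directions depended on the scaling. The deposited scaling gave 42.0% of the calls as higher, quantile normalization 52.3% (1109 higher and 1011 lower) and centring each array on its median 61.6% (1347 higher and 840 lower). The median difference of all tested genes was −0.06 as deposited, 0.07 after quantile normalization and 0.35 after median centring. The medians of gene lists below are read against the median of all genes. Where the sign of a list's median changed between these scalings, or with the trend on gene span removed, this is said beside its counts.

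**Figure D1:**
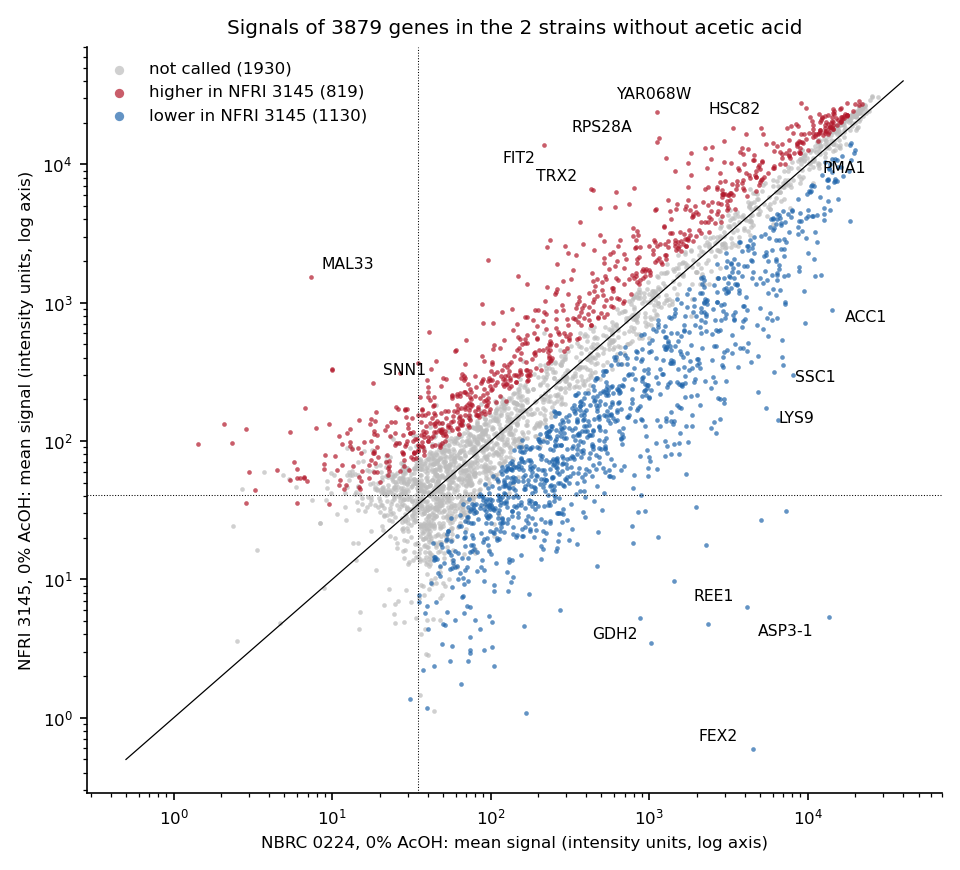
Mean signal of each of 3879 genes in NBRC 0224 (x axis) and NFRI 3145 (y axis) at 0% AcOH, both on log axes in intensity units, geometric means of 2 arrays. Red and blue points are the 819 genes called higher and the 1130 called lower in NFRI 3145, the diagonal marks equal signals and the dotted lines the mean background, and FEX2, ASP3-1 and REE1 lie far below the lower line while MAL33 lies far to the left of the other.

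The largest differences were genes with a strong signal in NBRC 0224 and none above background in NFRI 3145. FEX2, which encodes a plasma membrane exporter of fluoride and has a close paralog, read 4583 and 4425 in NBRC 0224 and 0.586 and 0.603 in NFRI 3145. The strains were far apart, and with the signals of NFRI 3145 raised to background FEX2 was at least 111-fold lower (adjusted p = 1.9e-09). ASP3-1, one of several near-identical genes for a cell wall asparaginase that frees ammonia from asparagine, read 13479 and 13828 against 3.03 and 9.34. It was at least 336-fold lower (adjusted p = 9.9e-08), and its probe set can also bind the other copies. REE1, a gene linked to the regulation of enolase, read 3549.7 and 4898 against 17.8 and 2.25, at least 103-fold lower (adjusted p = 9.7e-07).

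AZR1 encodes a membrane transporter of the major facilitator superfamily that is known in this species for resistance to azole drugs and to acetic acid. It read 2258 and 2442 in NBRC 0224 and 8.38 and 2.67 in NFRI 3145, the strain called tolerant, which puts it at least 57.7-fold lower there (adjusted p = 6.7e-08). GDH2, the NAD-dependent glutamate dehydrogenase that releases ammonia from glutamate, read 1499 and 694 against 3.67 and 3.27, at least 25.1-fold lower (adjusted p = 2.4e-07). Both acid phosphatase neighbours PHO3 and PHO5 showed the same pattern. PHO3, the form repressed by thiamine, read 2483 and 2081 against 19.3 and 16.3, and PHO5, the form induced by phosphate starvation, 1094 and 1163 against 27.6 and 14.7. They were at least 55.9-fold and 27.7-fold lower (adjusted p = 1.9e-07 and 1.5e-07). SUA5, needed for a base modification of tRNA, read 1804 and 2142 against 41.8 and 26.7, with 1 of the NFRI 3145 arrays below background (at least 46.6-fold lower, adjusted p = 2.3e-07).

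In all, 60 called genes had both NFRI 3145 arrays at or below background and both NBRC 0224 arrays at 4 times background or more, while 4 genes showed the reverse. The acid arrays entered this count through the shared spread, the filter on low signals and the choice of probe set. On every acid array, 41 of the 60 and 3 of the 4 again lay below background in one strain and above it in the other. Of the 60 genes, 10 lay within the last 10 genes of a chromosome arm and 48 spanned more bases than the median tested gene. They included NUP192, a large scaffold protein of the nuclear pore, at 892 and 994 against 25.5 and 37.6 (at least 23.2-fold lower, adjusted p = 2.6e-06). The 4 genes of the reverse pattern were MAL33, CUP1-1, YNL018C and SNN1.

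MAL33 encodes an activator of maltose genes, located near the end of the right arm of chromosome II. It read 8.76 and 6.14 in NBRC 0224 and 1675 and 1384 in NFRI 3145, at least 44.0-fold higher (adjusted p = 7.9e-09). CUP1-1, for the copper-binding metallothionein and present in tandem copies, read 22.1 and 4.47 against 216 and 508, at least 9.58-fold higher (adjusted p = 3.3e-04). The arrays of NFRI 3145 differed more than 2-fold for this gene but, as in every called gene, did not overlap with those of NBRC 0224. SNN1, for a subunit of a complex on endosomes, read 19.6 and 16.7 against 245 and 279, at least 7.56-fold higher (adjusted p = 5.0e-04). YNL018C, a reading frame without a described role, read 9.97 and 9.96 against 323 and 332, at least 9.47-fold higher (adjusted p = 1.0e-06).

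Among genes above background in both strains, FIT2 had the largest positive difference. FIT2 encodes a cell wall mannoprotein that helps to retain iron bound to siderophores, and it read 189.9 and 250.3 in NBRC 0224 and 14438 and 13317 in NFRI 3145. It was 63.6-fold higher (5.99 ± 0.24, adjusted p = 1.8e-08). Signals over 10000, a limit set here and not tested, may be compressed, so that differences of such genes can be too small. YAR068W, a reading frame of unknown role near the end of chromosome I, read 1045 and 1213 against 24324 and 23547 (4.41 ± 0.14, adjusted p = 5.7e-09). TRX2, a cytosolic thioredoxin, read 422 and 432 against 6037 and 7229.8 (3.95 ± 0.17, adjusted p = 3.3e-08). The small reading frame YGL007C-A, which lies beside the gene of the proton pump Pma1, read 91.5 and 102 against 2032 and 2039 (4.40 ± 0.23, adjusted p = 9.9e-08). In these 4 genes every array of NFRI 3145 lay far above both arrays of NBRC 0224.

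**Figure D2:**
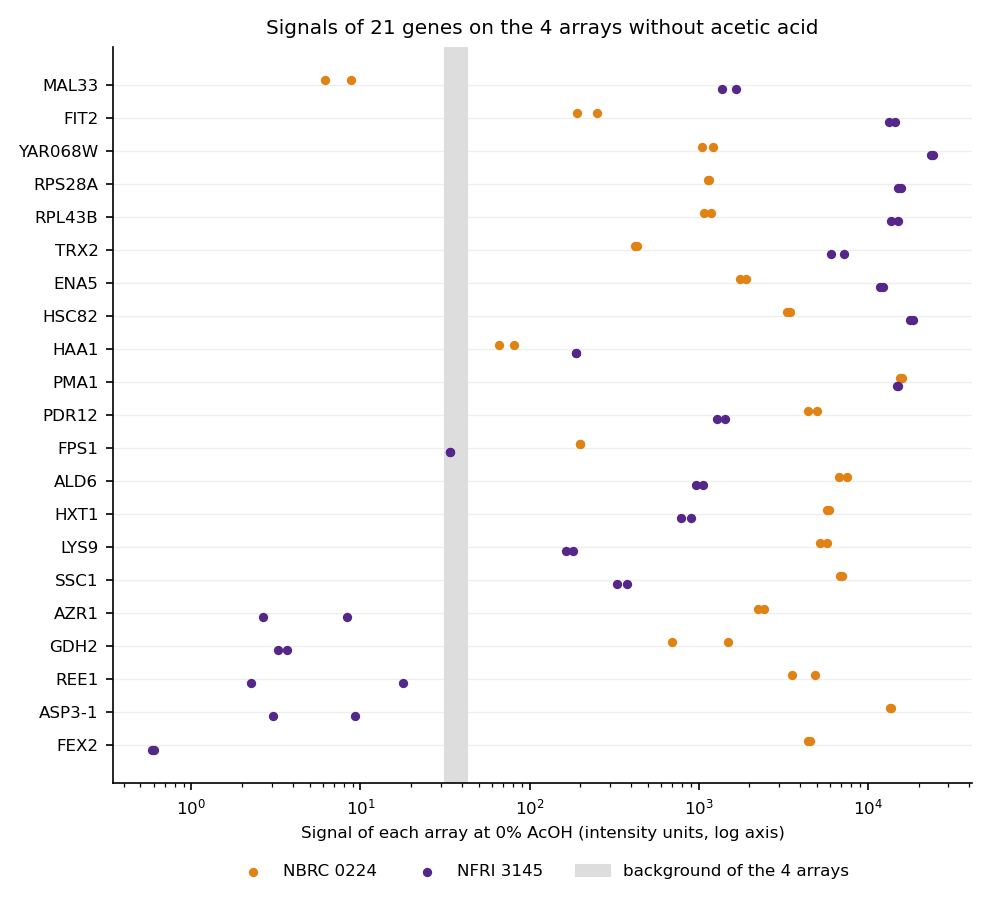
Signal of each array at 0% AcOH (x axis, intensity units, log axis) for 21 genes (y axis), with orange points for the 2 arrays of NBRC 0224 and purple points for the 2 arrays of NFRI 3145. The grey band spans the background of the 4 arrays, and the points of FEX2, ASP3-1, REE1, GDH2 and AZR1 in NFRI 3145 and of MAL33 in NBRC 0224 lie to the left of it, while those of PMA1 nearly coincide.

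The genes through which acetic acid enters, leaves and signals did not move as a group. HAA1, whose product switches on weak-acid response genes, was higher in NFRI 3145, at 80.8 and 66.0 in NBRC 0224 and 189 and 188 in NFRI 3145 (2.58-fold, 1.37 ± 0.31, adjusted p = 0.0035). FPS1, the channel of glycerol and undissociated acetic acid, was lower, at 198 and 198 against 33.7 and 33.7, which is below background (at least 4.87-fold, adjusted p = 9.2e-05). For both genes the strains did not overlap, as in every called gene. PDR12, the exporter of weak organic acid anions, was 3.50-fold lower at 5042 and 4448 against 1433 and 1281 (−1.81 ± 0.21, adjusted p = 3.7e-05). WAR1, the activator of PDR12, read 76.7 and 73.6 against 59.4 and 39.5, a difference of −0.63 ± 0.35 that was not called (adjusted p = 0.15). PMA1, the proton pump of the plasma membrane, read 16009 and 15436 against 15169 and 14849.8, with the strains close together at signals where a difference can be compressed. Its difference was −0.07 ± 0.11 (adjusted p = 0.64) as deposited, −0.30 after quantile normalization (adjusted p = 0.0043) and 0.35 under median centring (adjusted p = 0.083). With the trend on gene span removed PMA1 was called higher, by 0.56 (adjusted p = 0.0028) or, with quantile normalization as well, by 0.33 (adjusted p = 0.0063), so that it has no settled sign. HSP30, a stress protein that restrains Pma1, read 167 and 281 against 527 and 691 (1.48 ± 0.73, adjusted p = 0.11). It was not called in the 8 arrays but was called in the 4 arrays alone, under quantile normalization and under median centring (adjusted p = 0.0024, 0.039 and 0.030). The arrays of NBRC 0224 in acid, which enter the shared spread, read 1063 and 117.

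Of the 15 tested genes of the Haa1 weak-acid list, 5 were higher and 3 lower (median 0.16). The zinc finger gene STP3 was higher at 6945 and 8368 against 12666 and 12831 (0.74 ± 0.14, adjusted p = 0.0011), and TPO2, a polyamine exporter, lower at 9791 and 11697 against 4026 and 4494 (−1.33 ± 0.27, adjusted p = 0.0015). This probe set of TPO2 can bind related transcripts, and a second one gave −2.83. Of 22 tested drug and anion exporters, 11 were lower and 1 higher (median −1.02), where 29.1% of all genes were lower. TPO4, another polyamine exporter, read 9274 and 9942 against 751 and 687 (−3.74 ± 0.23, adjusted p = 2.8e-07). YOR1, an ABC transporter for many organic anions, read 1346 and 1384 against 115 and 56.1 (−4.09 ± 0.33, adjusted p = 2.1e-06). SNQ2, a multidrug ABC transporter, read 7345 and 7053 against 1137 and 842 (−2.88 ± 0.23, adjusted p = 2.2e-06). The exporters of this list had a median span of 2088 bases against 1215 for all tested genes, and with the relation to gene span described further on removed, 9 were lower and 3 higher (median −0.35).

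Other membrane proteins went both ways. Of 9 tested genes for sodium, potassium and sulfite transport, 2 were higher and 4 lower, with a median whose sign changed with the scaling. Of 23 tested amino acid permease genes, 4 were higher and 10 lower, and the sign of their median changed too. The 4 genes described next were all on the higher side. The aquaporin genes AQY1 and AQY2, for channels of water, were 4.62-fold and 4.04-fold higher. AQY1 read 82.3 and 95.2 against 433 and 387 (2.21 ± 0.26, adjusted p = 3.1e-05), and AQY2 1969 and 2749 against 8812 and 10015 (2.01 ± 0.18, adjusted p = 4.7e-06). ENA5, one of a tandem array of near-identical sodium pump genes, read 1767 and 1918 against 11749.7 and 12276 (2.71 ± 0.16, adjusted p = 2.1e-07), and its probe set can bind the other copies. A second probe set of ENA5 gave 1.12. ATO2, of a family of ammonium and acetate transporters, read 276 and 299.8 against 861 and 907 (1.62 ± 0.29, adjusted p = 7.2e-04). In each of these 4 genes the strains did not overlap, as in 81.5% of all tested genes and in every called gene.

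As deposited, iron genes went both ways within the siderophore route and were lower or not called in the reductive one. Of 7 tested genes for siderophores and mannoproteins, 2 were higher and 3 lower, with a median whose sign changed with the scaling. The cell wall mannoproteins FIT2 and FIT3, which hold iron chelates at the surface, were higher, FIT3 at 3982 and 4179 against 16935 and 16246 (2.02 ± 0.15, adjusted p = 8.7e-07). The siderophore transporters behind them were lower. ARN1 read 1246 and 1529 against 396 and 344 (−1.90 ± 0.20, adjusted p = 1.4e-05), and SIT1 256 and 251 against 89.1 and 99.6 (−1.43 ± 0.24, adjusted p = 4.6e-04). The third transporter, ENB1, differed by −0.85 ± 0.19 (adjusted p = 0.0035) and lost its call under median centring and with the relation to gene span removed (adjusted p = 0.065 and 0.081). In reductive uptake iron is reduced at the surface and carried in, and the list used here also holds a vacuolar transporter. Of its 9 tested genes, 5 were lower and none higher (median −0.65). They included FRE1, a ferric and cupric reductase, at 91.6 and 188 against 20.2 and 9.82 (at least 3.23-fold lower, adjusted p = 1.8e-04), and FTH1, a vacuolar iron transporter, at 899 and 927 against 309 and 270.2 (−1.66 ± 0.33, adjusted p = 0.0013). With the relation to gene span removed, 3 of the 9 were lower, and under median centring 3 were lower and 1 higher. GRX4, a glutaredoxin that passes the iron signal to the regulator Aft1, was lower at 1686 and 1976 against 453 and 535 (−1.89 ± 0.24, adjusted p = 7.0e-05). ISU1, the scaffold for iron-sulfur clusters, was higher at 2810.2 and 3243 against 7546 and 7489 (1.32 ± 0.19, adjusted p = 1.5e-04).

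Of 10 tested copper genes, 4 were higher and 1 lower, and 2 and 1 with the relation to gene span removed. SOD1, the copper-zinc superoxide dismutase, was higher at 4627 and 3044 against 12335 and 12079 (1.70 ± 0.18, adjusted p = 1.3e-05), as was the metallothionein gene above. CTR3, a high-affinity copper transporter and the 1 lower gene, read 55.3 and 174 against 11.5 and 2.59 and was at least 2.41-fold lower (adjusted p = 4.1e-04). Of the 15 tested genes of the zinc regulon, 3 were higher and 6 lower, and the sign of the median changed with the scaling. MCD4, which adds ethanolamine phosphate to membrane anchors, was among the lower genes at 4871 and 4744 against 908 and 529.5 (−2.79 ± 0.24, adjusted p = 3.4e-06).

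The phosphate list (Pho4) held 7 higher and 5 lower genes of 19. Phosphate transporters were found on both sides. PHO8, the vacuolar alkaline phosphatase, read 1767 and 1771 against 118 and 83.1 (−4.16 ± 0.28, adjusted p = 4.6e-07), and PHO84, the high-affinity phosphate transporter, 10868 and 9195 against 2502 and 2057 (−2.14 ± 0.17, adjusted p = 2.1e-06). PHO87, a low-affinity phosphate transporter named after its values were seen, differed by 1.07 ± 0.19 (adjusted p = 6.0e-04). Subunits of the polyphosphate polymerase of the vacuole were higher. VTC3 read 550.4 and 521 against 1460.1 and 1515 (1.47 ± 0.20, adjusted p = 1.1e-04), and VTC4 5416 and 4398 against 9299 and 9747 (0.96 ± 0.15, adjusted p = 2.3e-04). Thiamine genes were lower in 7 and higher in 3 of 16 (median −0.55). Under median centring 5 were lower and 4 higher, and with the relation to gene span removed 6 were lower and 4 higher. THI7, the thiamine transporter, differed by −1.81 ± 0.35 (adjusted p = 0.0012), its relative THI72 by −2.47 ± 0.27 (adjusted p = 2.0e-05) and THI4, which makes the thiazole ring, by −1.44 ± 0.21 (adjusted p = 1.7e-04).

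Of 17 tested glycolysis genes, 2 were higher and 1 lower as deposited. This count depended on the scaling, with 10 higher and 0 lower under median centring, 1 higher and 5 lower after quantile normalization, and 6 higher and 1 lower with the relation to gene span removed. Of 12 tested hexose transporter genes, 1 was higher and 3 lower, with a median whose sign changed with the scaling. HXT1, the low-affinity glucose transporter, was lower at 5714 and 5916 against 789 and 906 (−2.78 ± 0.17, adjusted p = 2.8e-07). SNF3, a sensor of low glucose, read 106 and 103 against 2.03 and 2.75 (at least 2.57-fold lower, adjusted p = 4.9e-04). Among subunits of the Snf1 kinase, which switches on genes when glucose is short, SIP2 was higher and SNF4 lower. SIP2 read 54.7 and 50.3 against 243 and 326 (2.42 ± 0.25, adjusted p = 1.4e-05), and SNF4 617 and 711 against 134 and 82.5 (−2.66 ± 0.29, adjusted p = 1.9e-05).

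The maltose loci, each made of an activator, a transporter and a maltase, differed locus by locus. MAL33, the activator of the locus on chromosome II, was found in NFRI 3145, while MAL31, the transporter beside it, was lower there at 483 and 728 against 215 and 232 (−1.41 ± 0.27, adjusted p = 0.0011). Of the locus on chromosome VII, the activator MAL13 read 304 and 409 against 13.3 and 24.3, and the transporter MAL11 171 and 183 against 19.7 and 27.4, both below background in NFRI 3145. They were at least 8.68-fold and 4.35-fold lower (adjusted p = 2.2e-06 and 5.0e-04). MPH2, a maltose permease of chromosome IV, was at least 2.59-fold higher at 22.4 and 9.49 against 96.6 and 82.9 (adjusted p = 0.0028). The probe sets of MPH2 can bind related transcripts.

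Genes of acetate metabolism did not move together. Of 18 tested genes of gluconeogenesis, the glyoxylate cycle and acetate use, 2 were higher and 3 lower, with a median whose sign changed with the scaling. ALD6, the cytosolic aldehyde dehydrogenase that makes most acetate during fermentation, was 7.08-fold lower at 7557 and 6782 against 1060.5 and 964 (−2.82 ± 0.17, adjusted p = 2.8e-07). ACS2, which activates acetate to acetyl-CoA, was 4.90-fold lower at 8399.9 and 9321 against 1880.3 and 1733 (−2.29 ± 0.14, adjusted p = 3.2e-07). ALD4, the mitochondrial aldehyde dehydrogenase, was 3.96-fold higher at 583 and 598 against 1679 and 3251 (1.98 ± 0.29, adjusted p = 1.8e-04). Of 15 tested fermentation genes, 7 were lower and 1 higher, with a median whose sign changed with the scaling. ADH3, the mitochondrial alcohol dehydrogenase, differed by −1.56 ± 0.24 (adjusted p = 2.2e-04) and SFA1, which oxidises formaldehyde and long-chain alcohols, by −2.68 ± 0.28 (adjusted p = 1.6e-05). ATF2, an alcohol acetyltransferase that makes acetate esters, read 18356 and 18655 against 3915 and 3915 (−2.24 ± 0.17, adjusted p = 1.3e-06).

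Of 15 tested genes of the tricarboxylic acid cycle, 8 were lower and 4 higher (median −0.69). Under median centring 4 were lower and 4 higher, and with the relation to gene span removed 7 were lower and 2 higher. IDH2, a subunit of isocitrate dehydrogenase, read 1557 and 1685 against 265 and 238 (−2.69 ± 0.21, adjusted p = 1.7e-06), and ACO1, aconitase, 7074 and 7112 against 2364 and 2011 (−1.70 ± 0.15, adjusted p = 3.1e-06). KGD1, of the 2-oxoglutarate dehydrogenase, differed by −2.67 ± 0.34 (adjusted p = 5.7e-05) and CIT1, citrate synthase, by −1.92 ± 0.42 (adjusted p = 0.0027). Among respiratory chain and ATP synthase genes, 7 of 34 were higher and 10 lower, with a median whose sign changed with the scaling. The small subunits ATP15 and COX9 were higher, ATP15 at 939.7 and 686 against 7548 and 5927 (3.06 ± 0.20, adjusted p = 3.7e-07) and COX9 at 59.6 and 82.6 against 532 and 534 (2.93 ± 0.24, adjusted p = 2.7e-06). RIP1, the iron-sulfur subunit of complex III, was lower at 3631 and 3849 against 501 and 444 (−2.99 ± 0.22, adjusted p = 9.0e-07), and ATP5, of the stalk of the ATP synthase, at 3302 and 3663 against 646 and 393 (−2.79 ± 0.30, adjusted p = 1.7e-05).

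As deposited, more lipid genes were lower than higher. In fatty acid and phospholipid synthesis 11 of 17 were lower and none higher (median −0.78), in sphingolipid synthesis 12 of 22 lower and 3 higher (median −0.67), and in ergosterol synthesis 12 of 24 lower and 2 higher (median −0.55). ACC1, which makes malonyl-CoA, the first step to fatty acids, read 12879 and 15757 against 966 and 812, 16.1-fold lower (−4.01 ± 0.19, adjusted p = 5.5e-08). FAS1, a subunit of the fatty acid synthase and a long gene, was 1.99-fold lower (adjusted p = 4.7e-05) as deposited and differed by −0.01 with the relation to gene span removed (adjusted p = 0.97). CHO2, which methylates phosphatidylethanolamine, read 1909 and 2256 against 462 and 292 (−2.50 ± 0.24, adjusted p = 8.1e-06).

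The sterol genes ERG8, ERG9 and ERG7 act in turn on phosphomevalonate, farnesyl diphosphate and squalene epoxide. ERG8 read 886 and 1118 against 89.7 and 66.3 (−3.69 ± 0.27, adjusted p = 9.0e-07), and ERG9 5071 and 4657 against 438 and 392 (−3.55 ± 0.27, adjusted p = 1.2e-06). ERG7 differed by −3.19 ± 0.25 (adjusted p = 1.6e-06). Among sphingolipid genes, SUR1, for mannosylation of ceramides, was 8.46-fold lower (−3.08 ± 0.22, adjusted p = 9.7e-07) and LAG1, for ceramide synthesis, 4.37-fold lower (−2.13 ± 0.18, adjusted p = 2.8e-06). ORM1, a brake on sphingolipid synthesis, was higher at 4242 and 3925 against 8906 and 8354 (1.08 ± 0.17, adjusted p = 2.5e-04). With the relation to gene span removed, the lower genes numbered 7 in fatty acid, 11 in sphingolipid and 10 in ergosterol synthesis, and the higher genes 2, 4 and 3. Under median centring the lower genes numbered 8, 7 and 9 and the higher genes 4, 6 and 7 in the same order, which is near balance for sphingolipids and ergosterol.

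Hypoxic genes, which are held off by haem and oxygen, were lower in 11 and higher in 1 of 20 (median −0.73). Under median centring 7 were lower and 3 higher, and with the relation to gene span removed 9 were lower and 3 higher (median −0.34). TIR4 and TIR1 encode cell wall mannoproteins of this set. TIR4 read 11046 and 8096 against 1233 and 1181 (−2.97 ± 0.20, adjusted p = 5.3e-07), and TIR1 16732 and 16626 against 8526 and 7839 (−1.03 ± 0.13, adjusted p = 7.0e-05). The 1 higher gene as deposited was ANB1, an isoform of the translation factor eIF5A made without oxygen, at 619 and 433 against 1885 and 1998 (1.91 ± 0.22, adjusted p = 3.3e-05). YHB1, a flavohaemoglobin that removes nitric oxide, read 301 and 522 against 45.9 and 73.7 (−2.77 ± 0.32, adjusted p = 3.3e-05). In cell wall synthesis, 10 of 23 genes were lower and 1 higher, with a median whose sign changed with the scaling, and the glucanase gene SCW11 differed by −3.06 ± 0.23 (adjusted p = 1.3e-06), the glucan synthesis gene KRE6 by −1.84 ± 0.16 (adjusted p = 3.8e-06) and the chitin synthase gene CHS3 by −1.91 ± 0.19 (adjusted p = 9.1e-06).

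Amino acid pathways differed from one another. Lysine synthesis had 6 of 9 genes lower and none higher (median −1.21). LYS9, the saccharopine dehydrogenase near the end of the pathway, read 5199 and 5741 against 181 and 164, 31.7-fold lower (−4.99 ± 0.21, adjusted p = 2.1e-08). LYS2, LYS1 and LYS20 of the same pathway differed by −1.94 ± 0.23, −1.89 ± 0.21 and −1.27 ± 0.22 (adjusted p = 4.0e-05, 1.9e-05 and 5.5e-04). Branched-chain synthesis was divided, with 5 of 12 genes higher and 5 lower. LEU1, the isopropylmalate isomerase, was lower at 908 and 1016 against 119.8 and 99.1 (−3.14 ± 0.23, adjusted p = 8.7e-07), as were BAT2, a branched-chain transaminase (−2.76 ± 0.22, adjusted p = 1.9e-06), and ILV2, acetolactate synthase (−2.50 ± 0.24, adjusted p = 7.4e-06). ILV3, the dihydroxyacid dehydratase, was higher at 9308 and 10348 against 15189 and 15448 (0.64 ± 0.13, adjusted p = 0.0013). In arginine synthesis 4 of 11 were higher and 2 lower, among them ARG7 at 926 and 1089 against 2466 and 2632 (1.34 ± 0.22, adjusted p = 3.6e-04) and the argininosuccinate lyase gene ARG4 at 1483 and 1413 against 2804 and 2829 (0.96 ± 0.17, adjusted p = 7.3e-04).

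Genes repressed by good nitrogen sources were lower in 9 and higher in 4 of 18 (median −1.28). Under median centring 7 were lower and 5 higher. DAL4, the allantoin permease, read 1912 and 1503 against 51.8 and 65.4 (−4.86 ± 0.25, adjusted p = 9.9e-08). PUT2, of proline breakdown, read 288 and 287 against 27.1 and 32.5, at least 7.07-fold lower (adjusted p = 3.1e-06). The ammonium permeases MEP2 and MEP3 went opposite ways, MEP2 at 1359 and 1357 against 459 and 509 (−1.49 ± 0.19, adjusted p = 6.3e-05) and MEP3 at 5069.8 and 5249 against 10071 and 10733 (1.01 ± 0.17, adjusted p = 3.8e-04). The glutamate dehydrogenases did so too. GDH1, which makes glutamate from ammonia, was higher at 912 and 739 against 2759 and 2949 (1.80 ± 0.33, adjusted p = 7.8e-04), while GDH2, which runs the other way, was below background in NFRI 3145. PTR2, the transporter of small peptides, read 5174 and 5259 against 761 and 546 (−3.02 ± 0.30, adjusted p = 1.0e-05), and AGP1, a broad amino acid permease, 3456 and 3898 against 7573 and 10827 (1.30 ± 0.18, adjusted p = 1.1e-04).

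Purine synthesis had 8 of 14 genes lower and 2 higher (median −0.85). With the relation to gene span removed 7 were lower and 5 higher, and under median centring 6 were lower and 4 higher. ADE13, adenylosuccinate lyase, read 3650.3 and 2560.3 against 260.0 and 282 (−3.50 ± 0.38, adjusted p = 1.9e-05). Isozymes of IMP dehydrogenase, the first step to GTP, differed in direction, with IMD2 higher at 323 and 292 against 2339.6 and 2209 (2.89 ± 0.22, adjusted p = 1.2e-06) and IMD3 lower at 6495 and 5549.9 against 1282 and 1244 (−2.25 ± 0.28, adjusted p = 4.8e-05). The probe set of IMD2 can bind related transcripts. The serine synthesis genes SER33 and SER3, which encode isozymes of the first step, were both lower. SER33 differed by −2.71 ± 0.29 (adjusted p = 1.7e-05), and SER3 read 426 and 251 against 25.2 and 21.6, at least 8.05-fold lower (adjusted p = 6.9e-05).

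**Figure D3:**
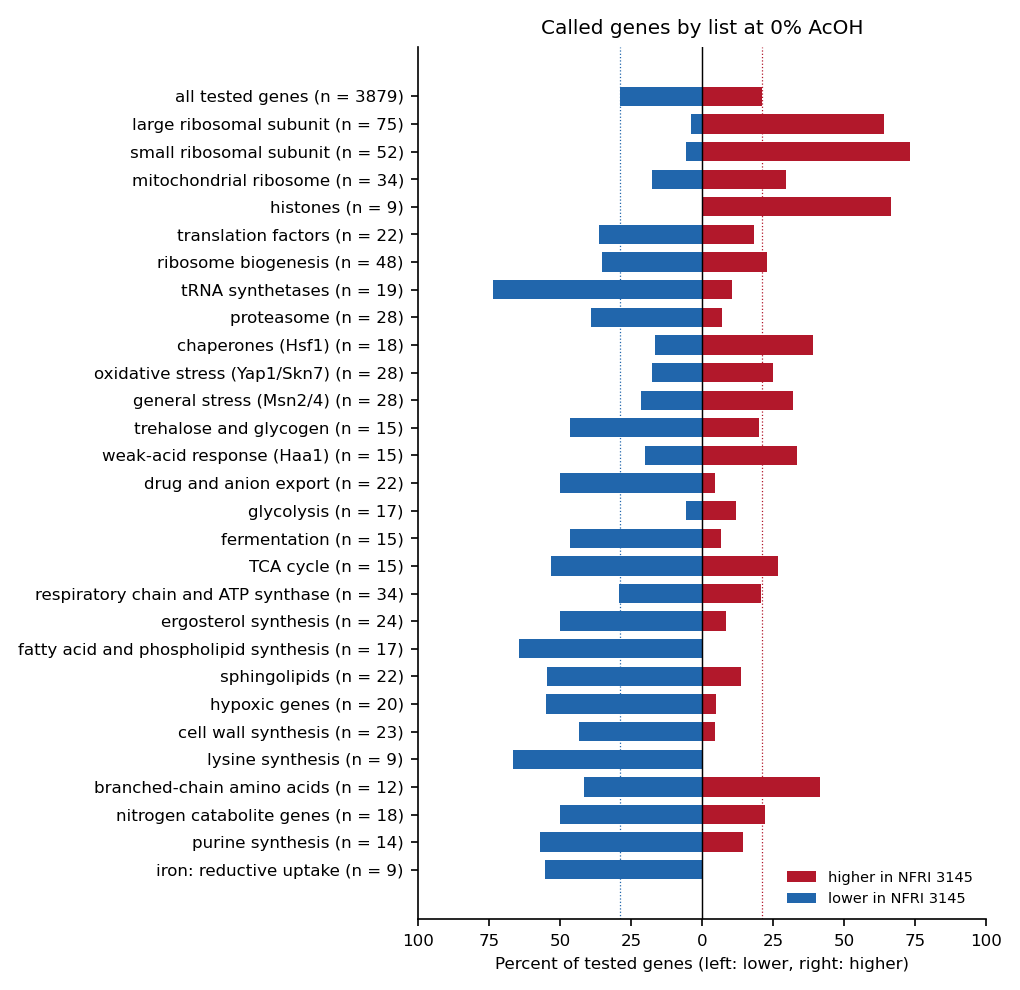
Share of the tested genes of each list that was called higher (red, to the right) or lower (blue, to the left) in NFRI 3145 at 0% AcOH, in percent of the genes tested, with the number tested in brackets. The top bar and the dotted lines show all 3879 genes (21.1% higher and 29.1% lower), against which the ribosomal subunits reach far to the right and the tRNA synthetases and lysine synthesis far to the left.

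Genes for ribosomal proteins were the largest group of higher genes. Of 127 tested genes of the cytosolic ribosome, 86 were higher and 6 lower (median 0.75), with 48 of 75 higher in the large subunit and 38 of 52 in the small one. RPS28A read 1144 and 1154 in NBRC 0224 and 15168 and 15826 in NFRI 3145, 13.5-fold higher (3.75 ± 0.14, adjusted p = 7.9e-09). RPL43B read 1184 and 1072 against 13734 and 15018 (3.67 ± 0.15, adjusted p = 2.1e-08), RPL37A 430.4 and 455 against 5782 and 7425 (3.89 ± 0.19, adjusted p = 6.7e-08) and RPS21B 638 and 603 against 5405 and 7432 (3.35 ± 0.20, adjusted p = 2.8e-07). Genes with a mean signal above 10000 in NBRC 0224 numbered 46 and had a median of 0.37, while the other 81 had a median of 1.34. Differences at such signals can be compressed, which was not tested. The split uses the NBRC 0224 signals that enter the difference itself, so these medians cannot show compression. With the relation to gene span removed, 36 genes of the large subunit were higher and 6 lower, and 25 and 5 of the small one.

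Most ribosomal proteins of yeast are made from a pair of near-identical genes, and 48 pairs had both copies tested. Both copies were higher in 24 pairs, 1 copy was higher and the other not called in 14, and in 3 pairs 1 copy was higher and the other lower. The copies differed by more than 1 on the log2 scale in 19 pairs. The widest gap was that of RPS28, where copy A was higher by 3.75 and copy B was at −0.81. In RPL31 copy A stood at 2.51 and copy B at −0.28, and in RPL9 copy A at 2.43 and copy B at 0.30. Probes for one copy can bind the other, so the split between copies is uncertain.

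The other parts of the translation machinery were lower or divided. Of 19 aminoacyl-tRNA synthetase genes, all tested, 14 were lower and 2 higher (median −1.57). ILS1, for isoleucine, read 2865 and 2720.2 against 210.0 and 196 (−3.78 ± 0.21, adjusted p = 1.5e-07), MES1, for methionine, 1567 and 1309 against 117 and 78.6 (−3.90 ± 0.25, adjusted p = 3.7e-07), and THS1, for threonine, 2013 and 1712 against 169 and 140.1 (−3.59 ± 0.24, adjusted p = 4.2e-07). Their median span was 1824 bases. With the relation to gene span removed 12 were lower and 4 higher (median −0.96). Ribosome biogenesis had 17 of 48 genes lower and 11 higher, and the sign of its median changed with the scaling. ARX1, a factor for nuclear export of the large subunit, read 979 and 797 against 38.8 and 42.6, with 1 array of NFRI 3145 below background (at least 21.7-fold lower, adjusted p = 8.7e-07), while NOG2, a GTPase of the same path, read 636 and 625 against 2052 and 1940.2 (1.66 ± 0.19, adjusted p = 2.9e-05). In RNA polymerase I, the large subunit RPA135 was lower (−2.14 ± 0.16, adjusted p = 1.2e-06) and the small subunit RPA14 higher (1.22 ± 0.12, adjusted p = 1.0e-05).

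Histone genes were higher in 6 of 9 and lower in none (median 0.87), for example HTA2 at 2528 and 1757 against 3673 and 4016 (0.87 ± 0.19, adjusted p = 0.0032). Their median span was 399 bases. With the relation to gene span removed none was higher, 2 were lower and the median was 0.13. Of the cell cycle genes 9 of 23 were lower and 1 higher, among them the G1 cyclin CLN3 at 11848 and 12489 against 1801 and 1401 (−2.94 ± 0.19, adjusted p = 3.9e-07). The sign of this list's median changed with the scaling, and under median centring 6 were lower and 5 higher. The 1 higher gene as deposited was POL30, the sliding clamp of DNA replication, at 28.8 and 28.6 against 127 and 228 (at least 4.92-fold, adjusted p = 9.8e-05).

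Of 18 tested chaperone genes under the heat shock factor Hsf1, 7 were higher and 3 lower (median 0.34). HSC82, an Hsp90 chaperone, was higher at 3329.7 and 3456 against 17809 and 18491 (2.42 ± 0.13, adjusted p = 1.1e-07). SSC1, the Hsp70 of the mitochondrial matrix, was 19.7-fold lower at 6906 and 7004 against 376 and 331 (−4.30 ± 0.19, adjusted p = 3.3e-08), while its partner HSP60 was higher at 5031 and 5124 against 7418 and 7862 (0.59 ± 0.13, adjusted p = 0.0023). Of 17 tested genes of folding and its stress response in the endoplasmic reticulum, 4 were higher and 4 lower. The sign of their median changed with the scaling. The endoplasmic reticulum chaperone gene KAR2 was lower at 1796 and 2032 against 235 and 299 (−2.85 ± 0.27, adjusted p = 7.4e-06), as was EUG1, a protein disulfide isomerase, at 1013 and 1016 against 81.9 and 62.6 (−3.83 ± 0.24, adjusted p = 3.4e-07). Proteasome genes were lower in 11 and higher in 2 of 28 (median −1.02), for example PRE4 of the core at 352 and 321 against 83.1 and 66.8 (−2.17 ± 0.24, adjusted p = 2.0e-05).

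Both cytosolic thioredoxins were higher, TRX1 at 816 and 676 against 5244 and 5034 (2.79 ± 0.17, adjusted p = 2.8e-07) beside TRX2 above. Both enzymes of glutathione synthesis were lower, GSH1 at 443 and 497 against 54.4 and 41.0, 1 of them below background (at least 9.76-fold, adjusted p = 2.2e-06) and GSH2 at 187 and 165 against 33.8 and 37.1 (at least 4.32-fold, adjusted p = 5.5e-05). Over the whole oxidative stress list, 7 of 28 were higher and 5 lower (median 0.28). Of 15 tested genes of trehalose and glycogen, 7 were lower and 3 higher, with a median whose sign changed when the relation to gene span was removed. TPS3, of the trehalose synthase complex, differed by −2.46 ± 0.24 (adjusted p = 7.1e-06) and GLC3, the glycogen branching enzyme, by −3.31 ± 0.35 (adjusted p = 1.4e-05), while NTH1, the neutral trehalase, was higher by 1.49 ± 0.22 (adjusted p = 1.6e-04). GPD1, the first enzyme of glycerol synthesis, was higher at 1920.1 and 1882 against 3775 and 4749 (1.16 ± 0.23, adjusted p = 0.0015).

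The differences followed the length of the genes. Gene span, from the first to the last base of the gene in the reference annotation, correlated with the difference at Spearman rho of −0.33 across the 3879 genes, a description over genes that share the same arrays. With the genes in 10 classes of span, the class of the shortest genes was 51 to 456 bases long and had a median difference of 0.77, with 47.4% called higher and 11.1% lower. In the class of the longest genes, of 2784 to 14733 bases, it was −1.02, with 6.96% higher and 48.7% lower. Without the genes of ribosomal proteins, the other 369 genes of the shortest class had a median of 0.76. Between the replicates of a strain the correlation with span was 0.06 in NBRC 0224 and −0.09 in NFRI 3145, and in the acid arrays the strain difference correlated with span at −0.25. Removing a smooth trend on span from each array left rho at 0.01 and called 871 genes higher and 1063 lower. Of the calls as deposited, 611 higher and 930 lower were also called the same way after that step. The probes at the 2 ends of the actin control transcript gave 3′ to 5′ ratios of 0.92 and 0.96 in NBRC 0224 and 1.00 and 0.96 in NFRI 3145. Other control pairs were uneven. The ratios of SPT15, a transcript with 5′ signals below background, were 10.6 and 9.21 in NBRC 0224 and 4.14 and 10.3 in NFRI 3145. Those of 25S rRNA were 24.6 and 47.7 against 14.1 and 9.63, and those of 18S rRNA 0.133 and 0.0785 against 0.0891 and 0.155. The part of RNA quality in the relation to span was not tested.

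**Figure D4:**
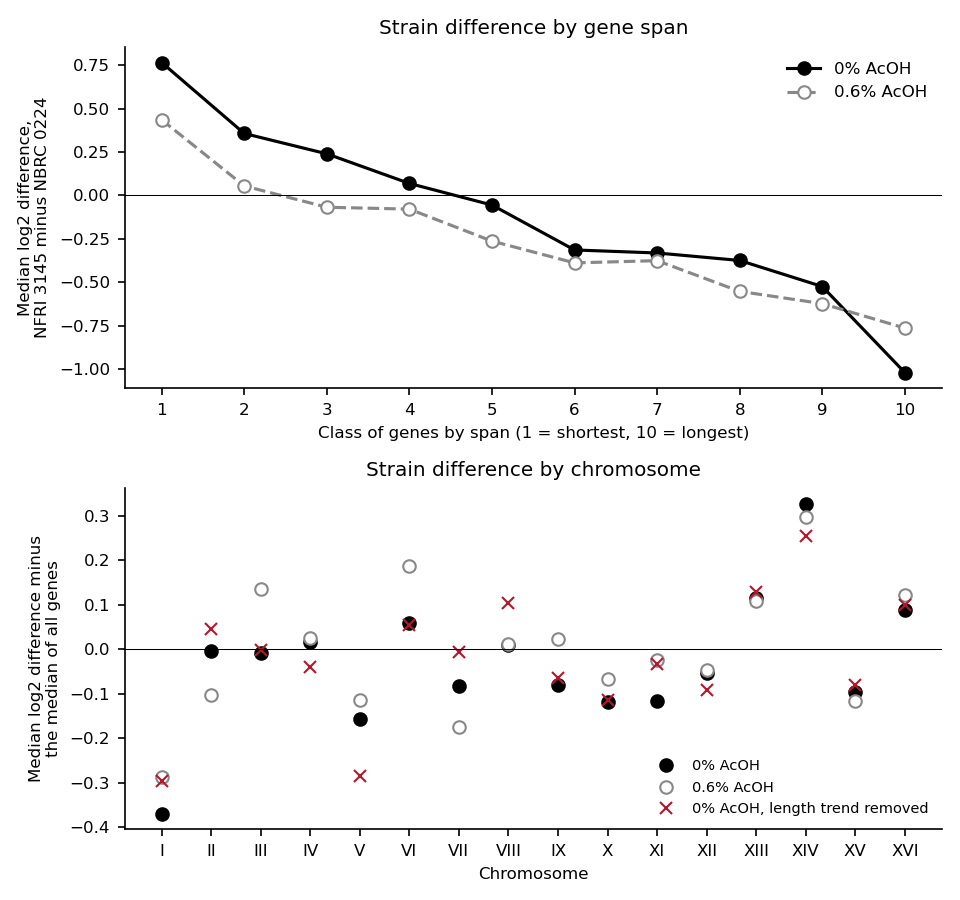
Top, the median log2 difference (NFRI 3145 minus NBRC 0224) of each of 10 classes of genes by span, without acid (filled) and in 0.6% AcOH (open), falling from 0.77 to −1.02 without acid. Bottom, the median of each of the 16 chromosomes minus the median of all genes, without acid, in acid and with the trend on span removed, where chromosome XIV stands highest and chromosome I lowest without acid.

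The share of large differences was higher among genes nearest to the ends of chromosome arms. Among the 74 tested genes that were 1 to 5 genes from an end, 62.2% were called and 36.5% were called with at least a 4-fold difference, against 49.7% and 15.96% of genes more than 20 genes from an end. Genes at 6 to 10 from an end stood at 48.4% and 16.8%. No test was made of these shares. The COS genes, a family near the ends whose proteins help to sort membrane proteins for breakdown, show how members split. COS6 read 5138 and 4967 against 35.5 and 20.4, and COS7 874 and 873 against 10.1 and 2.75, at least 124-fold and 21.5-fold lower (adjusted p = 7.9e-09 and 6.1e-07). COS9 was higher at 213 and 241 against 2442 and 2625 (3.48 ± 0.22, adjusted p = 3.0e-07), as was COS8 at 1.56 and 1.28 against 93.7 and 97.6 (at least 2.77-fold, adjusted p = 4.6e-05). Of 8 tested COS genes, 4 were higher and 3 lower. Copies of this family are alike in sequence, so signals of single members are uncertain. YBL113C and YLL066W-B, of the repeated Y′ elements at chromosome ends, were both lower, YBL113C at 5889.6 and 7068 against 143 and 141 (−5.50 ± 0.20, adjusted p = 7.9e-09).

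The medians of chromosomes XIV and I lay farthest from that of all genes. The 277 tested genes of chromosome XIV had a median difference of 0.27, which is 0.33 above the median of all genes, with 83 higher and 58 lower. The offset was 0.30 in the acid arrays and 0.25 with the trend on span removed. On chromosome XIV 60.6% of genes had a positive difference, against 46.7% elsewhere. The 72 tested genes of chromosome I had a median of −0.43, which is −0.37 from that of all genes, −0.29 in acid and −0.30 with the trend on span removed. In single pairs of arrays its offset ran from −0.31 to −0.02, so that it depends on the arrays paired. Copy numbers of chromosomes were not measured.

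Along the chromosomes, tested genes called in one direction formed 30 runs of at least 3 higher and 70 runs of at least 3 lower genes. Untested genes between them were passed over, and with 21.1% and 29.1% of all genes called, nothing is read from the number of runs. The longest was a run of 7 lower genes on chromosome X from GEA1 to TAH11, which held SSC1 and the chloride channel gene GEF1 at 1531 and 1570.3 against 125 and 74.0 (−4.01 ± 0.27, adjusted p = 5.3e-07). Its weakest member, RAV1, was called at an adjusted p of 0.047 and lost the call without any 1 of 5 arrays. On chromosome XIV a run of 6 higher genes reached from POP2 to BIO4 and included NOG2, the cation transporter gene HOL1 (1.09 ± 0.14, adjusted p = 6.2e-05) and 2 biotin genes, of which BIO5 differed by 0.93 ± 0.23 (adjusted p = 0.0059). Both ends of this run were weak. POP2 lost its call without NBRC 0224 or NFRI 3145 replicate 2 at 0% AcOH (adjusted p = 0.089 and 0.12), and BIO4 without any 1 of 3 arrays (adjusted p from 0.067 to 0.18) and with the relation to span removed (adjusted p = 0.11). A run of 3 tested genes on chromosome VI, the dihydroxyacetone kinase gene DAK2, the amino acid permease gene AGP3 and the transcription factor gene ZNF1, each lay below background on both arrays of NBRC 0224. DAK2 read 3.57 and 1.21 against 118 and 147, AGP3 1.94 and 4.20 against 109.6 and 136, and ZNF1 4.37 and 1.25 against 83.5 and 114. They were at least 3.81-fold, 3.53-fold and 2.82-fold higher (adjusted p = 4.6e-04, 3.4e-04 and 0.0080), and ZNF1 lost its call without either array of NFRI 3145 at 0% AcOH (adjusted p = 0.087 and 0.13). The asparaginase gene ASP3-1 lay in a run of 4 lower genes on chromosome XII that ended at RRT15.

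The mating-type markers did not assign either strain to a cell type. Of 4 tested a-specific genes, 1 was higher and 1 lower, and of 4 alpha-specific and 4 haploid-specific genes none was called. HO, the switching endonuclease, and MFA1, an a-factor gene, lay below background on all 4 arrays. The other a-factor gene, MFA2, lay above but near it on all 4, at 45.5 and 48.2 against 39.4 and 63.2. The alpha-factor gene MF(ALPHA)2, named after its values were seen, read 158 and 180 against 176 and 230. The receptor gene of a cells, STE2, read 168 and 176 against 68.2 and 76.7 (−1.25 ± 0.27, adjusted p = 0.0025), and that of alpha cells, STE3, 46.6 and 27.5 against 35.8 and 38.4, near background in both strains (adjusted p = 0.95). The alpha-agglutinin gene SAG1, named after its values were seen, was well above background in both, at 685 and 803 against 644 and 605 (adjusted p = 0.38). The a-specific gene ASG7, named on the same basis, was higher at 49.4 and 42.4 against 163 and 119 (1.61 ± 0.39, adjusted p = 0.0048) and lost its call without NFRI 3145 0% AcOH replicate 1 (adjusted p = 0.061).

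The comparison was repeated on the 4 arrays in 0.6% AcOH, which share no array with the first. Fitted alone, the 4 arrays without acid gave 2285 calls (58.9%), and the 4 acid arrays gave 1567 (40.4%). Of the 2285 genes, 2067 (90.5%) had the same direction in acid and 1309 (57.3%) were called the same way there. Of the 1570 genes left untested for low signal none enters these counts. In the fit of all 8 arrays, 734 of the 819 higher genes and 1105 of the 1130 lower genes had the same direction in acid. Among genes not called without acid, 65.0% had the same direction. In acid, 9 of the higher and 2 of the lower genes were called the opposite way. MAL33 read 901 and 1007 in NFRI 3145 in acid against 15.3 and 14.5 in NBRC 0224, and FIT2 17653 and 18269 against 254 and 421. ASP3-1 read 21.1 and 5.90 against 6284 and 10509, and SSC1 486 and 571 against 6622 and 5414. HAA1 kept its direction in acid, but with the strains closer together and near background, at 38.6 and 45.3 against 33.2 and 31.0. There, 1 array of each strain lay below background. Across the 3879 genes the differences without and with acid correlated at r = 0.798, as a description of genes measured with the same probes. In the fit of all 8 arrays the difference between them was called for 33 genes (0.851%). That count ran from 4 to 336 with 1 array left out and was 148 with signals raised to background.

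**Figure D5:**
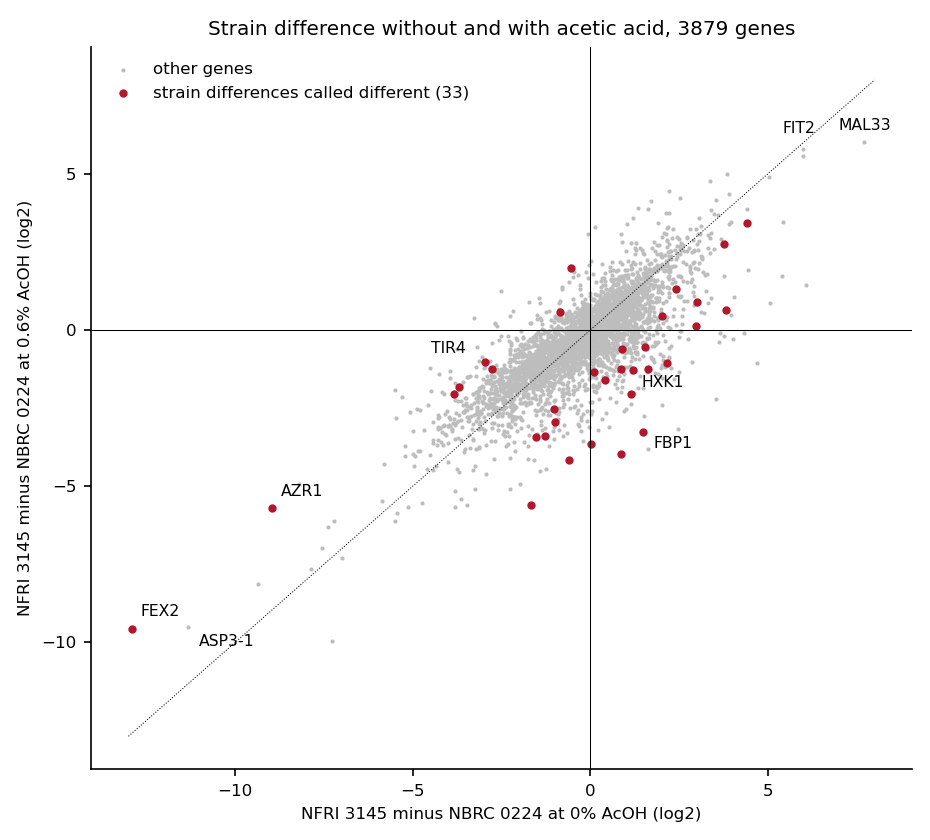
Log2 difference between NFRI 3145 and NBRC 0224 without acid (x axis) and in 0.6% AcOH (y axis) for 3879 genes, with the diagonal of equal differences dotted. Red points are the 33 genes whose strain difference was called different between 0% and 0.6% AcOH, among them FBP1 and HXK1, which are higher in NFRI 3145 without acid and lower in acid.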

How the data were processed

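PolyA RNA, prepared by hot phenol extraction and biotin labelled per the labels, was hybridised to Affymetrix Yeast Genome 2.0 arrays. The deposited values are linear signal intensities, 1 per probe set and array, made by the authors with the Affymetrix software GCOS, per the submitters' processing notes, which give no version. All arrays shared a 2% trimmed mean of 500.7 to 500.8 and had thus been scaled to a common level. Of 10928 probe sets, 7244 have 1 gene symbol, 1 has several and 3683, controls included, have none. Symbols were updated through the R64 gene table, and 5498 probe sets named 5449 S. cerevisiae genes. A gene took its brightest probe set. Of 37 genes with at least 2 probe sets above background in a strain, 28 had the same sign in each. In 16 of the 37 the probe sets differed by over 1 on the log2 scale. Background was the 95th percentile of 1746 probe sets for Schizosaccharomyces pombe.

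Log2 signals of the 8 arrays were fitted as 4 group means with limma 3.58.1 in R 4.3.3 (trend in the prior variance, Benjamini-Hochberg adjustment over 3879 genes, residual df 4, moderated 11.3). Folds of genes below background in one strain use signals raised to background and read "at least". The number of arrays limits the precision. The limma fit and its calls were tested on simulated data with known changes, and the other steps were not. Members and lists were chosen with earlier results of these data known. Named genes are the 15 largest called differences per direction, up to 5 called members with the smallest p of each list with 3 or more calls, genes found in 1 strain only (up to 10 per direction), genes of runs, and 11 fixed genes of acid tolerance and mating; the text gives a part of them, mostly those called whichever array was left out. Runs are consecutive tested genes in the order of the R64 table, with untested genes passed over, and its coordinates are not printed because the files name no build. Alternatives were other scalings, filters, floors and probe set rules, a replicate block, single arrays left out and, added after the data were seen, removal of the trend on gene span.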

Additional observations from a re-analysis of the deposited data

Results flagged for a closer look

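The strain difference was called different between 0% and 0.6% AcOH for 33 genes, and 15 of them are named here with the change in the difference, 0% minus 0.6% AcOH, on the log2 scale. Of the 33 genes, 14 had opposite directions in the 2 conditions, 13 had the same direction with a larger size without acid and 6 a larger size in acid. An unadjusted p under 0.05 was found for 671 genes.

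Genes that were higher in NFRI 3145 without acid and lower in acid were FBP1, of gluconeogenesis, with a change of 4.743, HXK1, a hexokinase, with 3.188, and the stress gene DDR2 with 3.204. For DDR2, 1 array of NBRC 0224 without acid and 1 of NFRI 3145 in acid lay below background, so the size of its change is uncertain. These counts and genes rest on a call that varied widely with single arrays, from 4 to 336 genes. FBP1 lost its call at 0% AcOH without 1 array of NBRC 0224 (adjusted p = 0.0584) and without 1 of NFRI 3145 (adjusted p = 0.0748). ENB1, the enterobactin transporter, was lower without acid and had a positive difference in acid, with a change of −1.423.

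The positive difference was larger without acid for HSC82 (1.117), AQY2 (1.558), RPS28A (1.007) and YAR068W (1.001). The negative difference was larger without acid for the cell wall gene TIR4 (−1.953), for HXT1 (−1.52) and EUG1 (−1.789). AZR1 (−3.254) and FEX2 (−3.332) lay below background in NFRI 3145 in both conditions, so neither the size nor the direction of their change can be read from these values. The negative difference was larger in acid for TIR1 (1.511) and for RSB1, a membrane protein of sphingoid base export (1.898).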

How the results depend on the processing

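The number of genes called higher moved from 819 to 1347 under median centring and to 543 with a 2-fold minimum, and stayed within 1.5 times under the other settings tried. The count for the change of the strain difference with acid, 33, was 54 under quantile normalization, 148 with signals raised to background, 117 with 32 added to each signal, 5 without the trend in the prior variance and 50 with a replicate block. It ran from 4, without NBRC 0224 0% AcOH replicate 1, to 336, without NBRC 0224 0.6% AcOH replicate 1. The cause was not tested. The replicate numbers did not pair the arrays (correlations of deviations from −0.054 to 0.054), and the replicate block gave 815 higher and 1138 lower genes. No called gene named in the text was reversed, but these were mostly genes that kept their call whichever array was left out. Over all tested genes, 7 that were called as deposited were called in the opposite direction with the trend on span removed. Among genes not called as deposited, WAR1 stood at 0.008384 with the trend on span removed and at 0.08811 with quantile normalization as well, and PMA1 at 0.3458 under median centring and at 0.5626 and 0.3267 in those fits. STE3 stood at −0.3305 and −0.0005384 without replicate 2 of NBRC 0224 and of NFRI 3145 at 0% AcOH, and at up to 0.4294 without any other single array. SAG1 took the values 0.2348, 0.164, 0.1933 and 0.6167 in settings that turned it. HXK1 lost its call without any 1 of 3 arrays (adjusted p from 0.052 to 0.123). With 2 arrays per strain, signals near background and above 10000 limit what can be compared.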
